A study of Mus musculus with 18 samples.

Results

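The genes described here are 9 genes of phosphoinositide 3-kinase (PI3K) signalling, picked by name out of the 16545 genes in a table of FPKM, fragment counts scaled for transcript length and for the size of the library, from mouse splenic B cells: *Pik3cd*, *Pik3ca*, *Pik3cg*, *Pik3r1*, *Pik3r5*, *Pik3ip1*, *Inpp5d*, *Akt1* and *Akt2*. Each of the 9 was found under its NCBI gene ID and passed the only filter applied, a value above 0 in at least 1 library of a comparison. The 18 RNA-seq libraries form 6 groups of 3, with control (CON) and Zbtb24 B-CKO (B-CKO) cells at D0, D1 and D2 of culture with the bacterial lipopolysaccharide LPS, that is at 0, 24 and 48 h. In the study's methods, each splenic replicate is 1 mouse on the C57BL/6 background, B-CKO mice are Zbtb24 loxp/loxp, with exon 2 of *Zbtb24* flanked by loxP sites, and carry a Cre that is active in the B lineage, and the controls named there carry the Cre alone. The age of these mice was not given in the sources used here.

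PI3K of class I turns a membrane lipid into PIP3, and PIP3 recruits kinases such as AKT and BTK to the membrane. In B cells the pathway works downstream of the antigen receptor and of receptors for growth and survival signals, and the lipid is removed again by phosphatases such as SHIP1. Active AKT keeps FOXO transcription factors out of the nucleus, and FOXO factors drive many genes of resting lymphocytes. Of the 9 genes, *Pik3cd*, *Pik3ca* and *Pik3cg* encode catalytic subunits, *Pik3r1* and *Pik3r5* regulatory subunits, *Pik3ip1* and *Inpp5d* (SHIP1) inhibitors of the pathway, and *Akt1* and *Akt2* the effector kinase.

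The targeted gene was checked first. *Zbtb24* lay between 37.1 and 49.6 FPKM in CON and between 10.5 and 14.3 FPKM in B-CKO libraries at D0, and the genotypes did not overlap at D1 (15.7 to 18.8 against 10.4 to 11.7 FPKM) or at D2 (13.4 to 17.1 against 9.23 to 11.3 FPKM). B cell markers were high throughout, with 8 measured markers summing to at least 2157 FPKM in every library. They fell from D0 to D1 as well, from a sum of 4599 to 5892 FPKM to 2485 to 2672 FPKM in CON libraries, with 6 of 8 lower in CON (median log2 fold change -1.08) and 7 of 8 in B-CKO cells (-1.27). Defining markers of other cells were low, with *Cd3e*, of the T cell receptor complex, at up to 1.15 FPKM, *Lyz2*, a myeloid lysozyme, at up to 3.95 FPKM and *Ncr1*, an NK cell receptor, at up to 0.350 FPKM over the 18 libraries. The highest of each list were *Lck*, a kinase, at up to 22.7 FPKM, *Itgam*, an integrin, at up to 6.03 FPKM, *Prf1*, perforin, at up to 13.6 FPKM and, for red cells, *Hbb-bs*, a globin, at up to 22.75 FPKM. The median SD over genes of log2(FPKM + 1) was 0.169 in CON and 0.158 in B-CKO libraries at D0 and at most 0.0852 in any later group. Of 9997 genes whose mean reached 1 FPKM, 119 (1.19%) differed over 2-fold, on the log2(FPKM + 1) scale, between the D0 library numbered 1 and the mean of the other D0 libraries in both genotypes, and *Pik3ip1* was one of them. The same count was 13 for the libraries numbered 2 and 70 for those numbered 3.

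Promoter windows of 300 bases, from 250 before to 50 after a start site, are shown for the gene with the largest change in culture (*Pik3ip1*), for the gene with the lowest p of any genotype difference below (*Inpp5d*) and for the one gene that rose by D1 (*Akt1*). They come from NCBI RefSeq on GRCm38.p6, where all 9 genes matched 17 windows. Capitals mark matches, on either strand, to 4 motifs: TGTTTAC of FOXO factors, CACGTG (the E-box), GAGGAAGT of the ETS factor PU.1 and CAGGACCT, a motif reported for ZBTB24.
Pik3ip1 promoter, start site inside the annotated gene span, chr11:3330481-3330780, plus strand: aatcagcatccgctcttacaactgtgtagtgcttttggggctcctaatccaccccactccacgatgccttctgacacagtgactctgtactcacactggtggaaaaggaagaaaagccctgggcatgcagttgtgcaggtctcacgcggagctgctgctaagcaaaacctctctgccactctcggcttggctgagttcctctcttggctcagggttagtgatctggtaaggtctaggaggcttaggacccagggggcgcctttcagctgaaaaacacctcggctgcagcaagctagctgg
Inpp5d promoter, chr1:87620062-87620361, plus strand: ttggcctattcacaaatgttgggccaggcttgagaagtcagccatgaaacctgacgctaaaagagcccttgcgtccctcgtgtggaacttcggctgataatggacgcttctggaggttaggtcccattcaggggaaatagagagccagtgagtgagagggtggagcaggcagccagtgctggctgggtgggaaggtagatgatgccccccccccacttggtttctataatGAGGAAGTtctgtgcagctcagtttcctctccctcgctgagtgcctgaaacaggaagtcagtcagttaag
Akt1 promoter, upstream start site, chr12:112674835-112675134, minus strand: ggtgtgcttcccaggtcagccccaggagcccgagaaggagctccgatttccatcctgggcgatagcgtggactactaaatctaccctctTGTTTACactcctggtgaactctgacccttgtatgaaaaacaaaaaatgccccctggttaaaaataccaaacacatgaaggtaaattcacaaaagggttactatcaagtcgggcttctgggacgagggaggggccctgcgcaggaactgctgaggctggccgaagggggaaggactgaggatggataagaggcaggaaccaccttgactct
The *Inpp5d* window held GAGGAAGT, starting 20 bases before the start site, and the 2 *Pik3cg* windows, which overlap, held it at a shared position, which made 3 of the 17 windows, against 3.20% of the 32851 windows of all genes. The FOXO letters were in the *Akt1* window shown and in 1 *Pik3cg* window, against 3.65% of all windows, and the *Pik3ip1* window held none of the 4 motifs. No window of the 9 genes held CACGTG (7.15% of all windows) or CAGGACCT (1.99%). The motifs do not overlap one another in these windows, and a match describes the letters only.

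In resting CON cells (D0) the catalytic subunit *Pik3cd* and the phosphatase *Inpp5d* led the order of levels. Mean FPKM, which corrects for transcript length, was 100.02 ± 7.02 for *Pik3cd* and 85.7 ± 6.78 for *Inpp5d* (SD, n = 3), above 95.1% or more of all genes in the table. *Pik3ip1* (58.9 ± 33.3), *Akt2* (51.1 ± 3.34) and *Akt1* (50.4 ± 5.30) followed, and neighbours from *Pik3cd* down to *Akt1* overlapped in their libraries. *Pik3r1* (18.1 ± 1.85) lay apart below them and apart above *Pik3ca* (14.3 ± 0.648), which overlapped with *Pik3cg* (13.2 ± 0.942), as did *Pik3cg* with *Pik3r5* (12.2 ± 0.695). At D1 *Akt1* led with 102.6 ± 3.40 FPKM, apart from *Pik3cd* at 66.3 ± 3.71, and *Pik3r5* was last with 2.52 ± 0.312 FPKM. The same genes stood first and last at D1 and D2 in both genotypes.

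**Figure D1:**
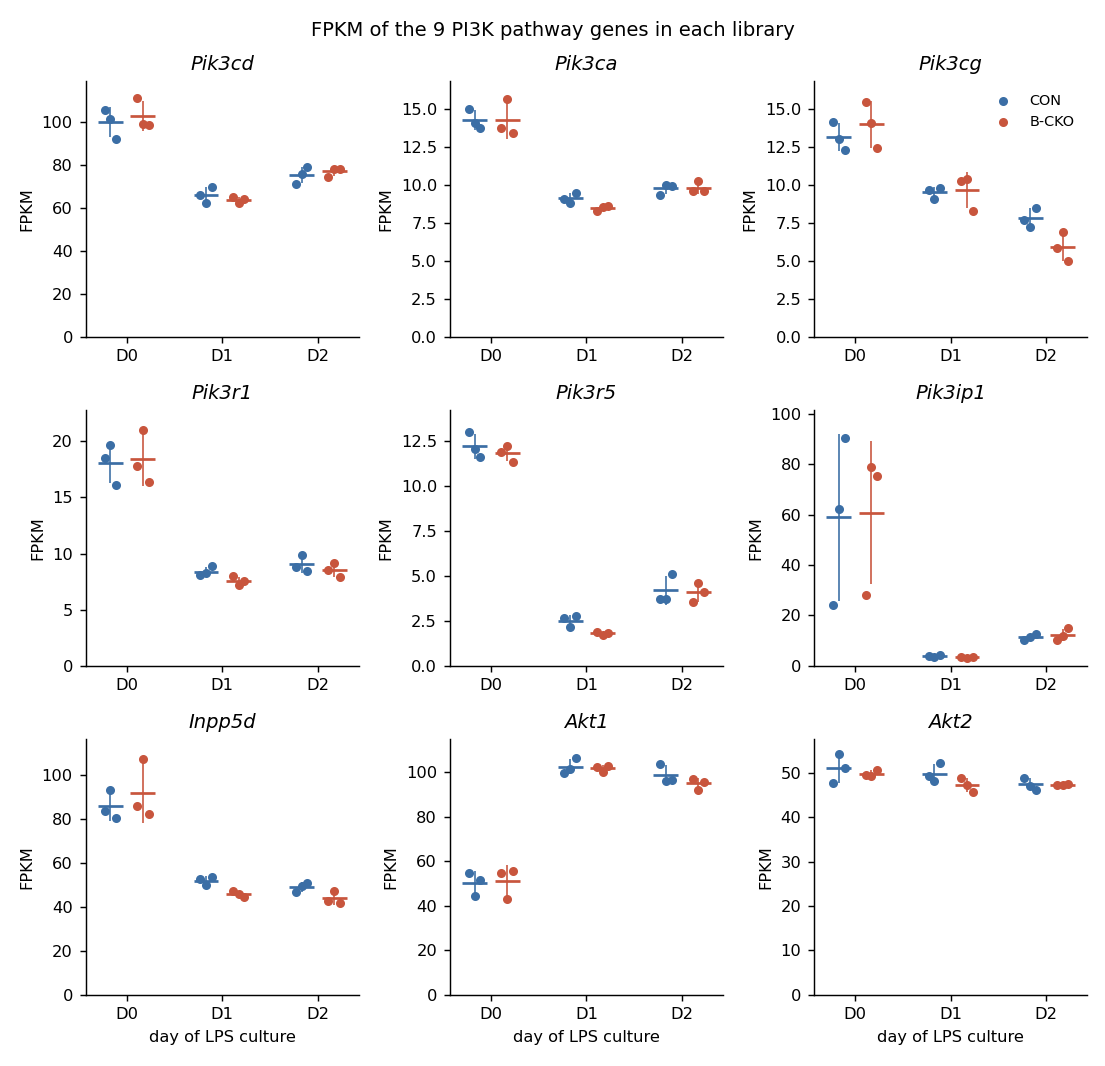
FPKM (vertical axes, linear from 0) of each of the 9 genes by day of LPS culture, with 1 point per library, bars at the mean of 3 libraries and vertical lines of 1 SD, CON in blue and B-CKO in red. *Pik3ip1* falls from between 23.99 and 90.4 FPKM at D0 in CON cells to under 5 FPKM at D1, *Akt1* goes up about 2-fold, and the D0 libraries numbered 1 carry the low points of *Pik3ip1*.

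The first question was how these genes changed in LPS culture. Between D0 and D1, 7 of the 9 genes fell and 1 rose in CON cells, and the same counts were found in B-CKO cells, where "fell" and "rose" mean a Benjamini-Hochberg adjusted p under 0.05 in limma over all genes tested. Over all genes, 30.7% were lower and 26.7% higher in CON cells, and 32.3% lower and 27.5% higher in B-CKO cells. The median log2 fold change of the 9 genes was -0.59 in CON and -0.68 in B-CKO cells, where the median of all genes tested was -0.02 in each. FPKM is relative to the RNA in a library. Less RNA of a gene per cell, fewer cells that express it and more RNA of other genes cannot be told apart here. The summed FPKM of the table also differed between the days. It was 453150 to 468659 at D0 and 515196 to 524518 at D1 in CON libraries, and 457954 to 472676 and 521350 to 526457 in B-CKO libraries.

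*Pik3ip1* (chr11:3319241-3342971 on GRCm38.p6, plus strand) encodes a membrane protein that binds and restrains the class I catalytic subunits. It was at 23.99, 62.2 and 90.4 FPKM in CON libraries 1, 2 and 3 at D0 and at 3.87, 3.26 and 4.13 FPKM at D1. In B-CKO libraries 1, 2 and 3 it was at 28.0, 78.9 and 75.4 FPKM at D0 and at 3.40, 3.14 and 3.42 FPKM at D1. Every D0 library thus lay far above every D1 library, although the mean of D0 libraries 2 and 3 was 3.18 times library 1 in CON and 2.76 times library 1 in B-CKO cells. The log2 fold change of FPKM + 1 was -3.47 (SE 0.456, adjusted p = 0.00087) in CON and -3.70 (SE 0.386, adjusted p = 0.000245) in B-CKO cells, and it was -4.00 and -4.18 without the D0 library numbered 1. At D1 the mean was 6.38% of the D0 mean in CON and 5.46% in B-CKO cells.

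*Inpp5d* (chr1:87620312-87720510, plus strand) encodes SHIP1, the phosphatase that removes a phosphate from PIP3 and limits antigen receptor signals. It was at 83.5, 93.3 and 80.3 FPKM at D0 and at 52.6, 49.8 and 53.5 FPKM at D1 in CON cells, a log2 fold change of -0.71 (SE 0.0711, adjusted p = 0.000265). In B-CKO cells it went from 85.8, 107.4 and 82.2 FPKM to 47.2, 45.8 and 44.7 FPKM, a log2 fold change of -0.98 (SE 0.104, adjusted p = 0.000279). No D1 library reached the level of a D0 library in either genotype. Mean *Inpp5d* at D1 was 60.6% of its D0 level in CON cells, and by D2 it was 57.2% in CON and 47.7% in B-CKO cells.

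Both regulatory genes among the 9 fell. *Pik3r5* (chr11:68432125-68497849, plus strand) encodes the adaptor through which the gamma catalytic subunit answers G-protein-coupled receptors. It was at 12.99, 12.1 and 11.6 FPKM at D0 and at 2.65, 2.16 and 2.74 FPKM at D1 in CON libraries, and at 11.9, 12.2 and 11.4 FPKM and then 1.87, 1.72 and 1.84 FPKM in B-CKO libraries. Its log2 fold change was -1.91 (SE 0.106) in CON and -2.19 (SE 0.0828) in B-CKO cells, with adjusted p = 2.44e-05 and 4.78e-06, the lowest of the 9 genes in each genotype. *Pik3r1* (chr13:101680761-101768217, minus strand), which encodes the regulatory subunit that stabilises the alpha and delta catalytic subunits, went from 18.5, 19.7 and 16.1 FPKM to 8.06, 8.22 and 8.86 FPKM in CON cells. In B-CKO cells it went from 17.8, 21.0 and 16.4 FPKM to 7.96, 7.22 and 7.53 FPKM. The log2 fold changes of *Pik3r1* were -1.02 (SE 0.0953, adjusted p = 0.000196) and -1.17 (SE 0.103, adjusted p = 0.000118). Both genes had no overlap between D0 and D1.

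Among the catalytic subunits, *Pik3cd* (chr4:149649168-149702566, minus strand) encodes the delta form, the main PI3K of lymphocytes. It was at 106.1, 101.7 and 92.3 FPKM at D0 and at 66.3, 62.6 and 70.0 FPKM at D1 in CON cells, and at 111.2, 99.3 and 99.1 FPKM and then 65.1, 62.5 and 64.2 FPKM in B-CKO cells. All 6 D1 libraries lay below all 6 D0 libraries, with log2 fold changes of -0.59 (SE 0.0729, adjusted p = 0.000683) in CON and -0.68 (SE 0.0609, adjusted p = 0.000126) in B-CKO cells. *Pik3ca* (chr3:32397065-32466112, plus strand), the broadly expressed alpha form, went from 15.0, 14.1 and 13.8 FPKM to 9.07, 8.80 and 9.51 FPKM in CON and from 13.8, 15.7 and 13.4 FPKM to 8.32, 8.56 and 8.63 FPKM in B-CKO cells. Its log2 fold changes, -0.59 (SE 0.0734) and -0.68 (SE 0.0810), were of the same size as those of *Pik3cd*. *Pik3cg* (chr12:32173397-32208677, minus strand), the gamma form of haematopoietic cells, went from 14.2, 13.04 and 12.3 FPKM to 9.69, 9.08 and 9.79 FPKM in CON cells. In B-CKO cells it went from 15.5, 14.1 and 12.4 FPKM to 10.3, 10.4 and 8.29 FPKM. *Pik3cg* fell by less than the other catalytic genes, by 0.43 (SE 0.0817, adjusted p = 0.00454) and 0.49 (SE 0.119, adjusted p = 0.0114) on the log2 scale, and a test of that difference between genes was not made.

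The 2 AKT genes did not move together. *Akt1* (chr12:112653821-112674884, minus strand), the widely expressed AKT kinase, was at 55.0, 44.6 and 51.7 FPKM at D0 and at 99.7, 101.8 and 106.3 FPKM at D1 in CON cells. In B-CKO cells it was at 54.8, 43.2 and 55.8 FPKM and then at 102.5, 100.1 and 103.1 FPKM. It rose by 1.02 (SE 0.0849, adjusted p = 0.000124) in CON and by 0.99 (SE 0.102, adjusted p = 0.000238) in B-CKO cells on the log2 scale, with a D1 mean of 203.5% and 198.8% of the D0 mean, and no D1 library overlapped with D0. *Akt2* (chr7:27591552-27640826, plus strand), the form best known for insulin signalling, was at 47.7, 54.4 and 51.2 FPKM at D0 and at 49.2, 48.2 and 52.2 FPKM at D1 in CON cells. In B-CKO cells it was at 49.6, 49.2 and 50.8 FPKM and then at 48.7, 47.3 and 45.8 FPKM. The CON libraries of *Akt2* overlapped between the days, and in B-CKO cells each D1 library was slightly below each D0 library. The *Akt2* difference was -0.03 (95% interval -0.20 to 0.13, adjusted p = 0.695) in CON and -0.08 (-0.19 to 0.04, adjusted p = 0.221) in B-CKO cells. With FPKM rescaled to TPM, the B-CKO difference of *Akt2* was -0.24 with an adjusted p of 0.00572. In CON cells the *Akt2* difference ran from -0.20 to 0.01 over the 12 alternative settings, with a lowest adjusted p of 0.0532 in limma. Whether *Akt2* stayed level thus depends on the scaling.

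**Figure D2:**
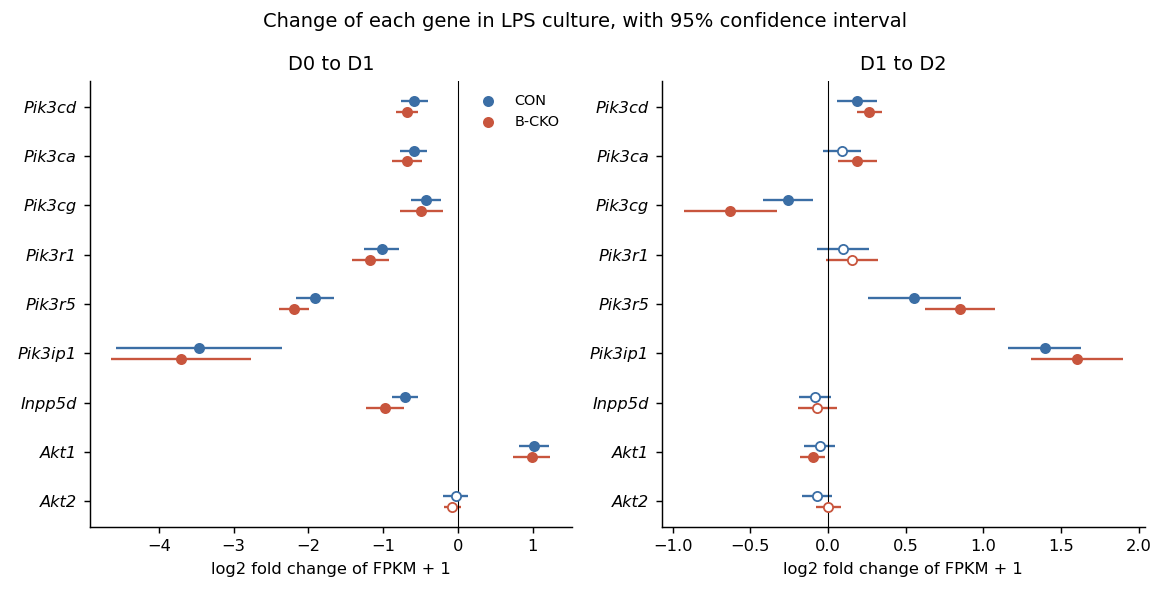
Log2 fold change of FPKM + 1 (horizontal axes) of the 9 genes from D0 to D1 (left) and from D1 to D2 (right), CON in blue and B-CKO in red. Points are limma estimates from 3 against 3 libraries, lines are 95% confidence intervals, and filled points have an adjusted p under 0.05. From D0 to D1 only *Akt1* lies to the right of 0, and from D1 to D2 *Pik3ip1* and *Pik3r5* lie to the right and *Pik3cg* to the left.

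Between D1 and D2, 3 of the 9 genes rose and 1 fell in CON cells, and 4 rose and 2 fell in B-CKO cells. Over all genes, 20.1% rose and 24.8% fell in CON cells, and 21.7% rose and 24.0% fell in B-CKO cells. This comparison uses the D1 libraries of the comparison above, so a D1 library that is low by chance gives a fall before it and a rise after it. *Pik3ip1* was at 10.3, 11.6 and 12.6 FPKM in CON and at 10.3, 11.8 and 14.8 FPKM in B-CKO libraries at D2, all above every D1 library. It rose by 1.40 (SE 0.0984, adjusted p = 9.57e-05) in CON and by 1.60 (SE 0.124, adjusted p = 8.79e-05) in B-CKO cells, and its D2 mean was 19.5% and 20.2% of the D0 mean. *Pik3r5* was at 3.71, 3.74 and 5.12 FPKM in CON and at 3.52, 4.61 and 4.13 FPKM in B-CKO libraries at D2. Its log2 fold change was 0.55 (SE 0.126, adjusted p = 0.0107) in CON and 0.85 (SE 0.0941, adjusted p = 0.000411) in B-CKO cells, which brought it to 34.3% and 34.6% of its D0 mean. Both inhibitor and adaptor thus stayed below their D0 libraries at D2.

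*Pik3cg* went on falling. It was at 7.72, 7.25 and 8.51 FPKM in CON and at 5.87, 6.90 and 4.99 FPKM in B-CKO libraries at D2, and its log2 fold change from D1 was -0.26 (SE 0.0671, adjusted p = 0.0196) in CON and -0.63 (SE 0.126, adjusted p = 0.00607) in B-CKO cells. *Pik3cd* rose slightly, to 71.4, 76.1 and 79.1 FPKM in CON (log2 fold change 0.19, SE 0.0538, adjusted p = 0.0286) and to 74.7, 78.4 and 78.2 FPKM in B-CKO cells (0.27, SE 0.0339, adjusted p = 0.00078). The CON calls of these 2 genes rest on few libraries. Leaving out 1 CON library gave an adjusted p of 0.0802, 0.0880, 0.0797 or 0.0894 for *Pik3cd* without D1 library 1, D1 library 2, D2 library 2 or D2 library 3, and of 0.0667, 0.0697 or 0.0539 for *Pik3cg* without D1 library 1, D1 library 3 or D2 library 1.

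In B-CKO cells *Pik3ca* (9.60, 10.3 and 9.60 FPKM at D2) passed with a log2 fold change of 0.19 (SE 0.0526, adjusted p = 0.0240) and *Akt1* (97.2, 92.2 and 95.9 FPKM) with -0.10 (SE 0.0329, adjusted p = 0.0461). Neither call was firm. With the mouse number as a block the adjusted p of *Akt1* was 0.0628, and leaving out any single library took it above 0.05 (0.0555 to 0.130). It was 0.0573 with a pseudocount of 0.1, 0.0648 over genes whose mean reached 1 FPKM, 0.122 with median ratio scaling and 0.0105 with TPM. The adjusted p of *Pik3ca* was 0.0794, 0.0640 and 0.0541 without D1 library 1, 2 or 3. In CON cells *Pik3ca* was at 9.37, 10.02 and 9.96 FPKM and *Akt1* at 103.8, 96.2 and 96.7 FPKM at D2. *Pik3r1*, *Inpp5d* and *Akt2* did not pass in either genotype, with log2 fold changes between -0.08 and 0.16 and adjusted p between 0.117 and 0.964. At D2 they were at 8.44 to 9.89, 46.7 to 50.9 and 46.3 to 49.0 FPKM in CON libraries and at 7.94 to 9.18, 41.7 to 47.1 and 47.2 to 47.5 FPKM in B-CKO libraries.

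The make-up of the class I catalytic transcripts was compared next. *Pik3cb*, the beta form, is added for this purpose and was at 0.390 to 0.740 FPKM in all 18 libraries. *Pik3cd* made up 78.1, 78.5 and 77.6% of the summed catalytic FPKM in CON and 78.9, 76.5 and 78.9% in B-CKO libraries at D0. At D1 its share was 77.4, 77.4 and 78.0% in CON and 77.4, 76.2 and 78.6% in B-CKO libraries. The share was therefore nearly level while all 3 abundant catalytic genes fell, with a difference of -0.454 and -0.687 percentage points (exact permutation test, two-sided, p = 0.20 and 0.50). At D2 it was higher than at D1 in each library, at 80.0, 81.0 and 80.5% in CON and 82.3, 81.5 and 83.6% in B-CKO cells, by 2.93 and 5.06 points (exact p = 0.10 each). The share of *Pik3cg* went from 11.2 ± 0.220% at D1 to 8.35 ± 0.543% at D2 in CON and from 11.7 ± 1.37% to 6.32 ± 0.925% in B-CKO cells (SD, n = 3).

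Between genotypes, the share of *Pik3cd* was 1.93 points higher in B-CKO cells at D2, where the libraries did not overlap (exact p = 0.10), and differed by 0.0357 points at D0 and -0.198 points at D1 (exact p = 1.0 and 0.80). With 3 against 3 libraries, 0.10 is the smallest p this test can give, and over the 7 comparisons made the lowest Benjamini-Hochberg adjusted value was 0.233. No difference of the share therefore passed a threshold of 0.05, which the design could not reach.

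**Figure D3:**
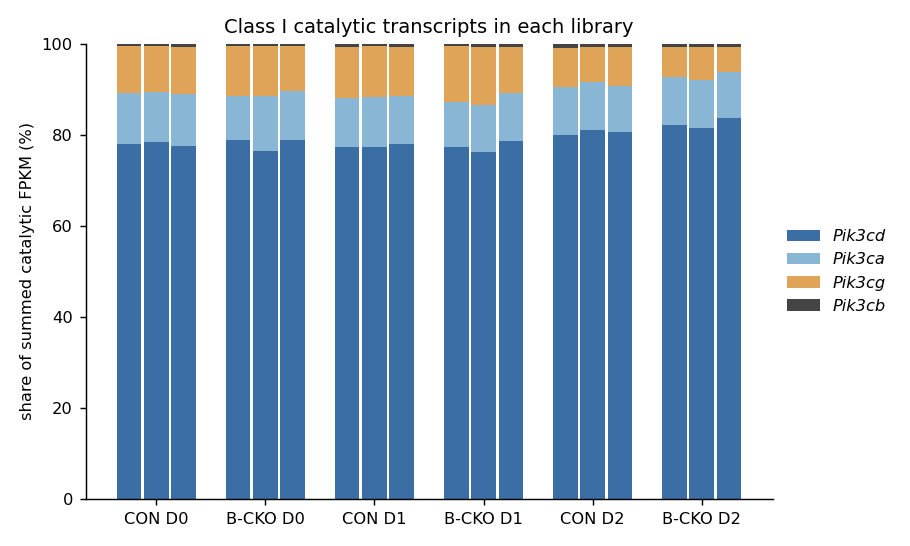
Share of each class I catalytic gene in the summed FPKM of the 4 genes (vertical axis, percent), 1 bar per library, in groups of 3 by genotype and day. *Pik3cd* takes 76.2 to 83.6% of every bar, and the part of *Pik3cg* is smallest in the B-CKO bars at D2, at 5.34 to 7.17%.

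The second question was whether the 9 genes differed between B-CKO and CON cells. None passed at an adjusted p under 0.05 in limma at D0, D1 or D2, where 0, 15 and 7 of all genes tested passed, or 0, 0.0993 and 0.0460%. The lowest adjusted p of any gene at D0 was 0.120. The deleted gene *Zbtb24* thus did not pass at D0 either, with means of 45.4 FPKM in CON and 12.5 FPKM in B-CKO cells. The lack of calls at D0 is therefore no evidence that the 9 genes were equal between genotypes. At an unadjusted p under 0.05 there were 0 of the 9 genes at D0, 2 at D1 and 2 at D2, where 2.00, 16.3 and 7.71% of all genes had such a p. The CON and B-CKO libraries did not overlap for 0 of the 9 genes at D0, 4 at D1 and 1 at D2, against 3.87, 20.1 and 11.1% of all genes.

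**Figure D4:**
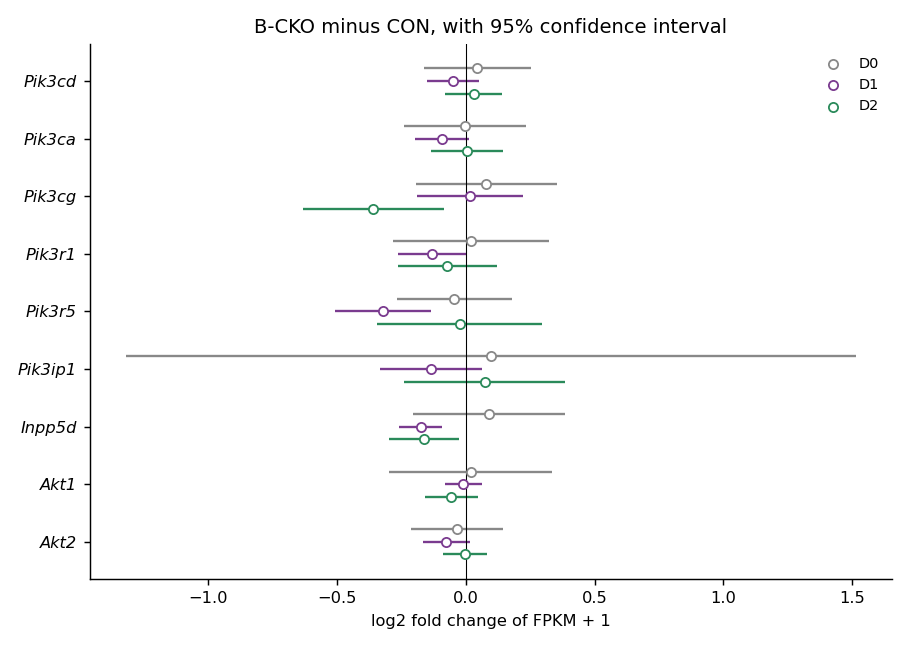
Difference between B-CKO and CON (log2 fold change of FPKM + 1, horizontal axis) of each of the 9 genes at D0 (grey), D1 (purple) and D2 (green), with 95% confidence intervals from limma on 3 against 3 libraries. All points are open because no adjusted p was under 0.05. The intervals of *Inpp5d* at D1 and D2, of *Pik3r5* at D1 and of *Pik3cg* at D2 lie to the left of 0, and the interval of *Pik3ip1* at D0 is the widest.

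At D1 the lowest p belonged to *Inpp5d*. Its 3 B-CKO libraries (44.7 to 47.2 FPKM) all lay below the 3 CON libraries (49.8 to 53.5 FPKM), with a log2 fold change of -0.17 (95% interval -0.26 to -0.09, adjusted p = 0.104). Over only the genes whose mean reached 1 FPKM, the adjusted p of the same difference was 0.0411. That limit also raised the number of calls among all genes at D1, as given in the last section. *Pik3r5* was lower by the larger amount, with 1.72 to 1.87 FPKM in B-CKO and 2.16 to 2.74 FPKM in CON libraries (log2 fold change -0.32, 95% interval -0.51 to -0.13, adjusted p = 0.135). *Pik3ca* and *Pik3r1* also had all B-CKO libraries below all CON libraries, with differences of -0.09 and -0.13 (adjusted p = 0.369 and 0.312). The log2 fold changes of the 9 genes at D1 ran from -0.32 (*Pik3r5*) to 0.02 (*Pik3cg*), 8 of them below 0, with a median of -0.09. Over all genes tested 7894 of 15104 were below 0, and the median was -0.0046.

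At D2 *Pik3cg* was at 4.99 to 6.90 FPKM in B-CKO and at 7.25 to 8.51 FPKM in CON libraries, which did not overlap (log2 fold change -0.36, 95% interval -0.63 to -0.09, adjusted p = 0.484). *Inpp5d* was at 41.7 to 47.1 FPKM in B-CKO and 46.7 to 50.9 FPKM in CON libraries, which overlapped by 1 library (log2 fold change -0.16, 95% interval -0.30 to -0.02, adjusted p = 0.550). The highest value at D2 was 0.07 for *Pik3ip1* (adjusted p = 0.900). At D0 the values ran from -0.04 for *Pik3r5* to 0.10 for *Pik3ip1*, whose interval of -1.32 to 1.51 was far wider than that of any other of the 9 genes. The libraries of the same number go together across genotypes at D0, and with the replicate number as a block the interval of *Pik3ip1* was -0.25 to 0.44 around the same 0.10. In that fit limma called 0 of the 9 genes (adjusted p of at least 0.904), and 0 of the 9 had an unadjusted p under 0.05, against 0 and 891 of 15641 genes (5.70%) over the table. *Inpp5d* (0.09, 95% interval -0.05 to 0.23) and *Pik3cg* (0.08, -0.07 to 0.23) were higher in B-CKO in 3 of 3 pairs, and the other 7 genes in 1 or 2 of 3. Without the D0 libraries numbered 1, a choice made after seeing the data, the unblocked difference was -0.01 for *Pik3r5* and 0.04 for *Pik3ip1*.

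The test of whether the change in culture differed between genotypes gave no call for the 9 genes at an adjusted p under 0.05 in limma, nor for any gene of the table (0% from D0 to D1 and 0% from D1 to D2). At an unadjusted p under 0.05 there was 1 of the 9 genes in each interval, against 2.89 and 7.31% of all genes. From D0 to D1 this was *Pik3r5*, which fell by 0.28 more on the log2 scale in B-CKO cells (SE 0.120, unadjusted p = 0.0435, adjusted p = 1.0), and the values ran up to -0.03 for *Akt1*. From D1 to D2 it was *Pik3cg*, which fell by 0.37 more in B-CKO cells (SE 0.152, unadjusted p = 0.0329, adjusted p = 0.649), and the highest value was 0.30 for *Pik3r5*. These fits took the libraries as independent, although the labels carry the same numbers across days. With genotype and number together as a block, 0 of the 9 genes passed in either interval.

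The other genes of the pathway were followed in lists. From D0 to D1 in CON cells, 10 of 11 further lipid phosphatases fell and none rose (median log2 fold change -0.91). Over all genes, as given above, 30.7% fell and 26.7% rose in CON cells and 32.3% and 27.5% in B-CKO cells, which is the background for every list count of this interval. They were led by *Inpp5a* (-1.48), *Inpp4a* (-1.31) and *Inpp5k* (-1.17), which dephosphorylate inositol lipids or inositol phosphates. Of 8 other measured PI3K subunits, 4 fell, among them *Pik3c2b* (-1.57), a class II enzyme, and *Pik3r4* (-1.56), a partner of the class III enzyme. *Pik3r6*, the second adaptor of the gamma catalytic subunit, rose by 0.36 (0.283 ± 0.0850 to 0.653 ± 0.177 FPKM, SD, n = 3) while *Pik3r5* fell. Of 8 PI3K adaptors 6 fell and none rose, and *Irs2*, an adaptor of the insulin receptor, fell the most, from 351.8 ± 234.3 to 2.08 ± 0.142 FPKM (log2 fold change -6.49, SE 0.641). In B-CKO cells the counts were 10 of 11 phosphatases, 6 of 9 subunits with 1 higher, and 6 of 8 adaptors.

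Downstream of PIP3, 7 of 9 PIP3-binding proteins fell from D0 to D1 in CON cells and none rose, with *Dapp1* (-1.04) and *Vav3* (-0.93) the most changed, and 8 of 9 fell in B-CKO cells. Around AKT, 5 of 10 genes fell in CON cells, among them *Rictor* (-1.31), a core part of the mTORC2 complex that phosphorylates AKT, and *Prr5* (-0.61), another part of it. *Trib3*, an AKT-binding pseudokinase, rose from 0.837 to 2.83 FPKM on average and *Mapkap1*, a further mTORC2 subunit, from 16.1 to 20.3 FPKM. Among 8 AKT substrates 5 fell and 2 rose, and the 3 largest falls were those of *Foxo1* (94.3 ± 33.0 to 23.6 ± 1.27 FPKM, -1.90), *Foxo4* (-1.76) and *Foxo3* (-1.44). The 2 that rose were *Bad* (0.59), a pro-death protein that AKT inactivates, and *Akt1s1* (0.47), an inhibitor of mTORC1. In B-CKO cells the counts were the same for the AKT substrates, and 5 of 9 genes around AKT fell and 2 rose.

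From D1 to D2 several list counts lay near those over all genes, of which 20.1% rose and 24.8% fell in CON and 21.7% and 24.0% in B-CKO cells. In CON cells 3 of 8 other subunits rose and none fell, with *Pik3r6* the most changed (0.653 to 3.13 FPKM, log2 fold change 1.31, and 0.98 in B-CKO cells), 2 of 8 adaptors rose, and 4 of 11 lipid phosphatases rose while 4 fell. *Inpp4b*, which acts on the product of SHIP1, fell by 0.68 in CON and 0.72 in B-CKO cells. Around AKT 5 of 10 genes fell and none rose, of the PIP3-binding proteins 2 of 9 rose and 4 fell, and of the AKT substrates 3 of 8 rose and 2 fell. In B-CKO cells the counts of rises and falls were 3 and 0 for subunits, 2 and 0 for adaptors, 5 and 4 for phosphatases, 0 and 4 around AKT, 3 and 2 for PIP3-binding proteins and 4 and 2 for AKT substrates.

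Genes known as FOXO targets fell without exception from D0 to D1, 12 of 12 in CON cells and 12 of 12 in B-CKO cells. Of all genes tested, 30.7 and 32.3% fell. The median log2 fold change of the list was -2.02 and -2.34, against -0.02 for all genes in each. This list, like the others, was chosen with earlier results of these data known. The list holds *Pik3ip1* itself and also *Irs2*, which is in the adaptor list too. Beside *Irs2*, the most changed were *S1pr1*, the receptor for exit from lymphoid tissue (-4.16 in CON and -4.42 in B-CKO cells), and *Klf2*, a factor of quiescent lymphocytes (-3.51 and -4.08). From D1 to D2, 9 of the 12 rose in CON and 10 in B-CKO cells (median log2 fold change 0.54 and 0.82), and 1 fell in each, *Il7r*, the receptor for interleukin 7. The level of *Il7r* was low, with means of 0.303 FPKM at D1 and 0.0733 FPKM at D2 in CON cells. In B-CKO cells its means were 0.30 and 0.05 FPKM. *Ccng2* (1.80 and 2.15), *Pik3ip1* (1.40 and 1.60) and *Cdkn1b* (1.18 and 1.27), of which *Ccng2* and *Cdkn1b* encode brakes of the cell cycle, rose the most. Between genotypes no FOXO target passed at any day, and at D1 all 12 log2 fold changes were below 0, with a median of -0.16 and 7 of 12 at an unadjusted p under 0.05, against 16.3% of all genes. The B cell markers lay the same way at D1, with 8 of 8 below 0, a median of -0.14 and 5 of 8 at an unadjusted p under 0.05, and their part in the values of the FOXO targets was not tested.

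Markers of other cell types also moved in culture. The 9 measured T cell markers summed to 24.8 to 36.5 FPKM in CON and 25.1 to 34.04 FPKM in B-CKO libraries at D0, to 12.6 to 15.5 and 10.5 to 11.7 FPKM at D1, and to 12.99 to 14.2 and 9.29 to 11.1 FPKM at D2. All 9 fell from D0 to D1 in both genotypes. Most of the sum was *Lck* (20.7 FPKM at D0 and 12.02 FPKM at D1 in CON cells on average), while the means of *Cd3e* and *Cd4* were 0.623 and 0.467 FPKM at D0 and 0.0867 and 0.0433 FPKM at D1. The 6 NK cell markers went from 7.46 to 14.01 FPKM in sum at D0 to 0.540 to 0.650 FPKM at D1 in CON cells, with *Ncr1* at 0 in all 3 CON libraries at D1. The 9 myeloid markers summed to 4.47 to 8.94 FPKM at D0 and 4.02 to 5.38 FPKM at D1 in CON cells, and the 6 erythroid markers to 15.04 to 37.6 and 8.23 to 11.5 FPKM. Members of both sums went both ways. In CON cells 3 myeloid markers fell and 1 rose, *Itgam*, from 0.977 to 2.42 FPKM on average. Of the erythroid markers 4 fell and 1 rose, *Hbb-bt*, from 2.86 to 7.58 FPKM. In B-CKO cells 4 myeloid markers fell and 1 rose, and 3 erythroid markers fell and 0 rose. B-CKO libraries ran from 3.33 to 10.7 FPKM for the myeloid, 0.470 to 16.3 FPKM for the NK cell and 7.51 to 71.1 FPKM for the erythroid sum over the 3 days. The part of such cells in the falls of the 9 PI3K pathway genes, and that of the fall of the B cell markers, was not tested.

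For the 2 genes with the widest range over the 6 groups, the 3 genes most alike in pattern were sought by Pearson's r of log2(FPKM + 1) over the 18 libraries, among 9997 genes. *Pik3r5* was matched by *Calcoco1* (r = 0.996), *Rere* (0.995) and *Tpcn1* (0.993). *Calcoco1*, a gene of selective autophagy, was at 21.5, 4.03 and 7.21 FPKM on average at D0, D1 and D2 in CON cells. *Pik3ip1* was matched by *Kctd10* (r = 0.987), *Map1lc3b* (0.986) and *Nub1* (0.986). *Map1lc3b*, which encodes an autophagosome protein, was at 83.3, 29.9 and 39.4 FPKM in CON cells. The 18 libraries share 3 days and 2 genotypes, so these values describe a common course and not independent points.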

How the data were processed

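RNA-seq was done on purified splenic B cells, 1 mouse per replicate, with 3 replicates per genotype and day. The authors mapped reads to mm10 with bowtie2, used Cufflinks and RSEM, and deposited FPKM with 2 decimals for 16545 genes. Versions and annotation are not given in the sources used here, and the labels and the study's methods name different sequencers. The table gives no counts, so depth and detection limits are unknown. NCBI IDs were matched to RefSeq symbols for 16512 genes.

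The deposited FPKM were put on a log2(FPKM + 1) scale. They were tested in R 4.3.3 with limma 3.58.1 (lmFit, eBayes with a trend), since the test named in the study needs counts. Each comparison was fitted on its own libraries, over genes above 0 FPKM in any of them, with Benjamini-Hochberg adjustment over all these genes and a threshold of 0.05. The added 1 makes fold changes of low genes look smaller than they are. The fit was first tested on simulated data. Shares were compared with exact permutation tests (scipy 1.17.1), and figures were made with matplotlib 3.10.9 in Python 3.11.15.

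All 9 genes are reported by library and, for the changes in culture, with their fold change. For genotype, those with a p under 0.05 and the lowest and highest are given. From each pathway list, up to 3 called genes per direction are named. Members and lists were chosen with earlier results of these data known. Some genes of these lists, among them one with a genotype call, and the results that rest on them are not reported here, while list counts include them.

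The labels carry the numbers 1 to 3 across the days of a genotype, and the main fits took all libraries as independent. Numbers 1 to 3 were treated as pairing the samples where every same-number correlation of deviations exceeded 0.1. This held between genotypes at D0 (0.854, 0.468 and 0.789) and from D1 to D2 in B-CKO cells (0.126, 0.183 and 0.117). Alternatives were a pseudocount of 0.1, a minimum mean of 1 FPKM, 2 other scalings, a replicate block and leaving out each library. A block together with the minimum, and leaving out the D0 libraries numbered 1, were added after seeing the data.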

Additional observations from a re-analysis of the deposited data

How the results depend on the processing

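The 600 refitted log2 fold changes covered all 9 genes for the changes in culture. For the genotype differences and the differences in change, they covered only genes with a p under 0.05 and the lowest and highest. Other genes near 0 are thus not in the count. Direction and side of the threshold were kept in 559 cases, the call was lost in 23 and gained in 5, and the direction turned in 13. Of the 120 refitted counts of called genes among the 9, 117 stayed within 1.5 times the reported count. From D1 to D2 in CON cells the count was 4, and 2 to 3 with 1 library left out (2 without CON D1 library 1, where *Pik3cd* and *Pik3cg* did not pass). For the genotype difference at D1 the count went from 0 to 1 over only genes whose mean reached 1 FPKM (*Inpp5d*, adjusted p = 0.0411) and to 2 when a replicate block was added to that limit (*Inpp5d*, 0.0377, and *Pik3r5*, 0.0412), the latter chosen after seeing the data; fewer genes are tested under that limit, and it took the calls among all genes from 15 to 388 at D1 and from 7 to 29 at D2. The call of *Akt1* from D1 to D2 in B-CKO cells was lost with a pseudocount of 0.1, the 1 FPKM limit, median ratio scaling, the replicate block and without any single library, and held with TPM. The block alone changed no other call of the 9 genes, and calls among all genes under it were 0 at D0, 5 at D1 and 3 at D2. At D1 the numbers did not pair the samples by the same check (correlations 0.103, 0.200 and 0.0910). Rescaling to TPM ended the D1 to D2 calls of *Pik3cd* in CON cells (0.14, adjusted p = 0.0920) and *Pik3ca* in B-CKO cells (0.15, 0.145), and without B-CKO D2 library 2 *Inpp5d* passed there (-0.12, 0.0420). Among the values refitted, the directions that turned were these. *Akt2* from D1 to D2 in B-CKO cells was -0.051 with TPM and -0.019 to 0.025 with 1 library left out. Leaving out 1 library also gave -0.081 to 0.012 for *Akt2* from D0 to D1 in CON cells, and, between genotypes, -0.44 to 0.57 for *Pik3ip1* at D0, -0.037 to 0.11 for *Pik3cg* at D1, -0.058 to 0.19 for *Pik3ip1* at D2 and -0.15 to 0.055 for the *Akt1* difference in change from D0 to D1. The cause was not tested. All 49 refitted differences of the *Pik3cd* share moved by less than the spread between libraries. With FPKM alone the depth is unknown, so no counting error can be given, and p-values rest on the spread of 3 mice per group.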
